A study of Mus musculus with 8 samples.

Results

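The 4 genes of the CD3 complex, Cd3d, Cd3e, Cd3g and Cd247, were followed through the DNA methylation of mouse B and T lymphocytes. They were chosen by name, as the genes encoding the signalling chains that accompany the T cell receptor, with earlier results of these data known. They stand against 20700 autosomal protein-coding genes tested in the same way. Each gene was taken with its body and 10 kb to either side, and every CpG covered by at least 5 reads in all 4 deposited files was used. Cd3g, Cd3d and Cd3e are neighbours on chromosome 9, so their regions merge into 1 interval of 60056 bp with 632 CpGs. Cd247 stands alone on chromosome 1, with 108597 bp and 1345 CpGs.

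Whole-genome bisulfite sequencing was carried out on spleen cells of C57BL/6J mice, an inbred strain, aged 6 to 8 weeks, and the labels name no allele or treatment. Resting B cells were taken as CD43-, and T cells were sorted as naive CD4+ CD62Lhi CD44lo CD25- cells, so that the T files stand for 1 T cell subset. The 8 samples formed 4 groups of 2 by sex and cell type, with DNA of each sample pooled over animals and 1 deposited file per group. Whether a file merges its 2 samples is not stated, so no spread between replicates of a group could be measured, and the female and male files served as separate pools of each cell type.

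The complex works as the signalling part of the T cell receptor. CD3 gamma, delta and epsilon (Cd3g, Cd3d, Cd3e) pair on the cell surface with the antigen-binding receptor chains, and the zeta chain (Cd247) carries most of the tyrosine motifs that the kinase Lck phosphorylates and that the kinase Zap70 then binds. The complex is a hallmark of T cells, and B cells lack it, using CD79A and CD79B in its place. Methylation of CpGs at a promoter is commonly low where a gene is in use, and bisulfite reads it as the share of unconverted reads. Bisulfite alone, as the data used here are labelled, reads 5-methylcytosine and 5-hydroxymethylcytosine alike.

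The promoter sequences are shown because they hold the start sites at which B and T cells were compared, and differ in how many CpGs they hold. They run 5′ to 3′ from 250 bases before to 50 after the RefSeq start (GRCm38.p6), with CpGs in capitals, and cover chr9:44981536-44981835 (plus strand, Cd3d), chr9:44980382-44980681 (minus strand, Cd3g), chr9:45009562-45009861 (minus strand, Cd3e) and chr1:165788431-165788730 (plus strand, Cd247).
Cd3d: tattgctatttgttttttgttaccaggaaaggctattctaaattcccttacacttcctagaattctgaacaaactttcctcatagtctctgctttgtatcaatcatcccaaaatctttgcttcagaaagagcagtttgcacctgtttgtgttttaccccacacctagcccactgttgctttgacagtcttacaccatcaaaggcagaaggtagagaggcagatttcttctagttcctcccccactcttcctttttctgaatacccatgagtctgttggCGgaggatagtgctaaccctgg
Cd3g: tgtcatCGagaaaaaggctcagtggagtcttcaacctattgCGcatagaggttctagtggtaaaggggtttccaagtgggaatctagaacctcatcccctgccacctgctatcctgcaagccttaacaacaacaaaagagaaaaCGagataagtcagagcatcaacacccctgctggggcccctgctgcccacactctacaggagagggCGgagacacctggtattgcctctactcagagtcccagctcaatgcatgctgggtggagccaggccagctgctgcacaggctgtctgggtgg
Cd3e: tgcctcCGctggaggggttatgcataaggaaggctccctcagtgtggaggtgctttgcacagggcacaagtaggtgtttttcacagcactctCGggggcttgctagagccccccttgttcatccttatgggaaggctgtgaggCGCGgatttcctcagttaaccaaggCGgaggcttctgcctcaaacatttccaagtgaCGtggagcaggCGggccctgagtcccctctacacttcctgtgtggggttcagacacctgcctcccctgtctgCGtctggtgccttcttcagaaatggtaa
Cd247: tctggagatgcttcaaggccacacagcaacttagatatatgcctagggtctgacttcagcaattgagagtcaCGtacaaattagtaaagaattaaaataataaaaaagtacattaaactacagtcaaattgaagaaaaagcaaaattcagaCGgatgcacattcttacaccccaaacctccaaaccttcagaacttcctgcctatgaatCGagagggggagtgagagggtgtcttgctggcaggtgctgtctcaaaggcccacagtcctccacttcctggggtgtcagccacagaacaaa

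The 4 sequences differed in CpG number. Cd3d held 1 CpG, Cd247 held 3, Cd3g held 4 and Cd3e held 8, while the median over 32544 distinct RefSeq promoter windows of this length was 7. Their ratios of observed to expected CpGs were 0.0774 for Cd3d, 0.183 for Cd3g, 0.210 for Cd247 and 0.333 for Cd3e, below the median of 0.387. GC content was 42.3% for Cd3d, 43.7% for Cd247, 54.0% for Cd3g and 56.7% for Cd3e, against a median of 53.0%.

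Single CpGs of these windows showed where the B cells too were low. In the Cd3e window every CpG was at 0 in both T files except the one at base 7, which had 5.88% in male T, and the B files had between 50% and 100% at all 8. In the Cd3g window the CpGs at bases 7, 42 and 210 lay between 75.0% and 94.7% in B and at 0 in T. The CpG at base 145 of Cd3g stood apart with 10.0% in female B and 12.5% in male B, next to 9.09% in female T and 0 in male T, on 8 to 18 reads. It directly precedes the single AGATAA match (the GATA motif) of the 4 windows, which begins at base 147.

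In Cd247 the CpG at base 152 had no methylated read in any file, on 6 to 13 reads. The CpG at base 73 had 57.1% in female B, 70% in male B, 0 in female T and 8.33% in male T, and that at base 210 had 28.6% and 8.33% in female and male B. Over the 3 CpGs together, the Cd247 window was at 37.0% in female B and 25.8% in male B, the lowest B levels of the 4 windows, with 0 in female T and 2.78% in male T. The sole CpG of Cd3d, at base 279, had 92.9% of 14 reads in female B and 83.3% of 12 in male B, with 0 of 12 and 0 of 21 in female and male T, which allows levels of up to 25% and 14.3%.

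A set of 5 short motifs was searched on both strands of these windows, with the share of all promoter windows that hold each. The ETS core GGAA was found in all 4 genes, with 6 matches in Cd3d, 5 in Cd3e and 2 each in Cd3g and Cd247, and in 96.0% of all windows. The E box CANNTG was also found in all 4, and in 72.3% of all windows. CTTTGA (TCF) was found in Cd3d, with 2 matches, and in Cd247, with 1, and in 16.0% of all windows, AGATAA in Cd3g and in 11.2%, and TGTGGT (RUNX) in no window of the 4 genes and in 16.7% of all.

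Promoters were next measured over a wider window of 1 kb to either side of the annotated start. At Cd3d (19 CpGs) the level was 95.5% in female B, 95.3% in male B, 8.33% in female T and 5.87% in male T. Cd3g (15 CpGs) had 88.9% and 86.6% in female and male B, and 5.52% and 5.48% in female and male T. The windows of these 2 genes overlap over 646 bp with 3 CpGs, so their values are partly shared.

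Cd3e (30 CpGs) had 83.4% in female B, 86.6% in male B, 3.45% in female T and 1.87% in male T. Cd247 (39 CpGs) had 86.3% and 83.0% in female and male B against 2.67% and 2.73% in female and male T. Both B files were thus high and both T files low at every gene, and sexes differed by at most 3.30 points within a cell type. The levels rested on 225 to 748 reads per file, and no 95% Wilson interval was wider than 8.64 points (counting error only, as for all intervals and limits here). Reads are counted once at each CpG they cover, so counts over several CpGs are not independent. Intervals and limits over several CpGs are therefore too narrow.

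**Figure D1:**
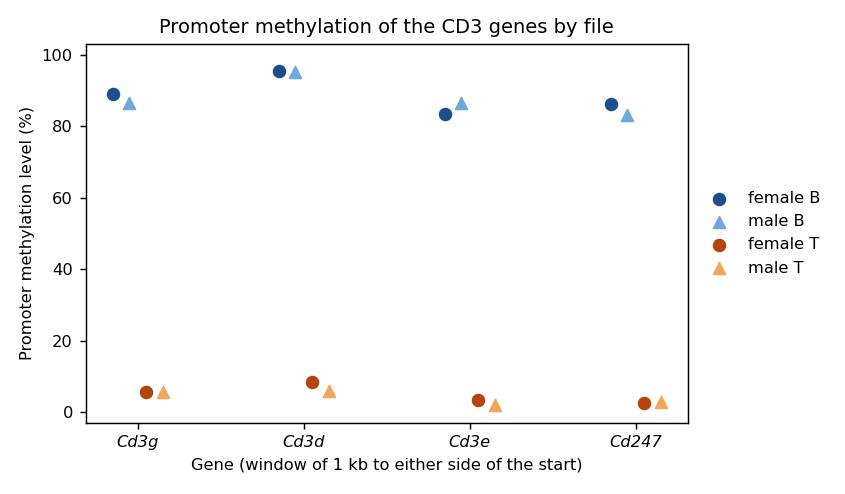
Promoter methylation (percent of reads, window of 1 kb to either side of the start) of the CD3 genes in each of the 4 files, with circles for female and triangles for male files. B files lie between 83.0% and 95.5% and T files between 1.87% and 8.33%.

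The mean difference between B and T was 88.3 points at Cd3d, 82.3 at Cd3e, 82.2 at Cd3g and 82.0 at Cd247. All 4 promoters were called higher in B, at an adjusted p under 0.05 in the quasi-binomial model and a difference of 20 points or more, and the adjusted p lay between 1.33e-07 and 4.09e-07. Among all 49667 promoters tested, 0.995% were called higher in B and 1.63% in either direction. In the order of that difference, the 4 genes held places 7, 17, 18 and 21. An exact permutation test of 2 files against 2 cannot go below p = 0.333, so these calls rest on the spread estimated over all promoters.

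Over the 4 files, the promoters with the most similar levels were other members and genes outside the complex, among them Themis. Among 19647 protein-coding promoters with at least 50 reads in every file, the nearest to Cd3d were Cd3g, Cd3e and Cd247, at Euclidean distances over the 4 levels of 11.3, 16.2 and 16.6 points. Cd3e and Cd3g were each nearest to Cd247, at 4.75 and 5.94 points. Themis was in place 2 for Cd3e, at 5.97 points, and in place 3 for Cd3g, at 9.03. Cd247 was nearest to Themis, at 3.48 points, and then to Cd3e, at 4.75.

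Genes acting with the complex were less uniform. Of 29 genes of T cell receptor signalling, 11 had promoters called higher in B, against 0.995% of all promoters, and 18 were not called. None was called lower, against 317 of all 49667 promoters. The median difference was 13.5 points against 0.105 over all promoters. Themis, a thymocyte selection and signalling protein, had 85.8% and 82.3% in female and male B with 0.699% and 0 in female and male T.

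Zap70, the kinase recruited by the phosphorylated chains, differed by 62.3 points but kept 27.6% in female T and 26.3% in male T. Cd5, a surface inhibitor of receptor signalling, differed by 56.6 points. The smallest differences of the list were 0.358 points at Nck1, an adaptor that links receptors to the cytoskeleton, and -0.366 at Lat, the adaptor phosphorylated by ZAP-70. The B cell counterparts went the other way: B minus T was -67.6 points at Cd79a and -31.8 at Cd79b, both called lower in B.

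Promoters of marker genes went with the labels of the files for the most part. These lists were chosen with earlier results of these data known. Over all promoters, 0.995% were called higher in B, and 317 of 49667 lower. All 6 B cell markers were called lower in B, with differences of -80.6 to -31.8 points, and 6 of 7 T cell markers were called higher. The exception was Cd28, at -3.29. All 7 T cell markers are also in the signalling list. Neither the 3 NK cell nor the 5 myeloid markers were called, at -3.03 to 3.0 and -19.3 to 4.79 points. Both CD8 T cell markers, whose cells the sort removes, were called higher in B, by 20.9 points at Cd8a and 50.3 at Cd8b1.

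Beyond the promoters, the data were segmented in each file into low-methylation runs, stretches of at least 4 successive CpGs whose running level over 3 CpGs stayed under 30%. A T-only run is the overlap of runs in both T files where the B files together were at 50% or more. Cd3g and Cd3d, whose start sites face away from each other over 1355 bp, shared a single T-only run at chr9:44977124-44987329. It spanned 10206 bp and 102 CpGs, from intron 1 of Cd3g through both start sites and all of Cd3d into exon 5, its last.

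Over this run the level was 74.2% in female B, 70.2% in male B, 4.96% in female T and 4.70% in male T. The rule that defines a T-only run fixes this order of T and B, here and for the other T-only runs, so these levels are a description. It was the longest of 4778 T-only runs on the autosomes, whose median length was 272 bp and 95th percentile 1023 bp. The place depends on the settings: it was also the longest with a running level over 5 CpGs, and was in place 3 under a level of 50% and in place 5 with 10 or more reads per CpG. Under a level of 20% it broke into 2 pieces around the start of Cd3d, the longer of 5247 bp and in place 2, and without smoothing into 3, the longest of 3852 bp and in place 8.

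**Figure D2:**
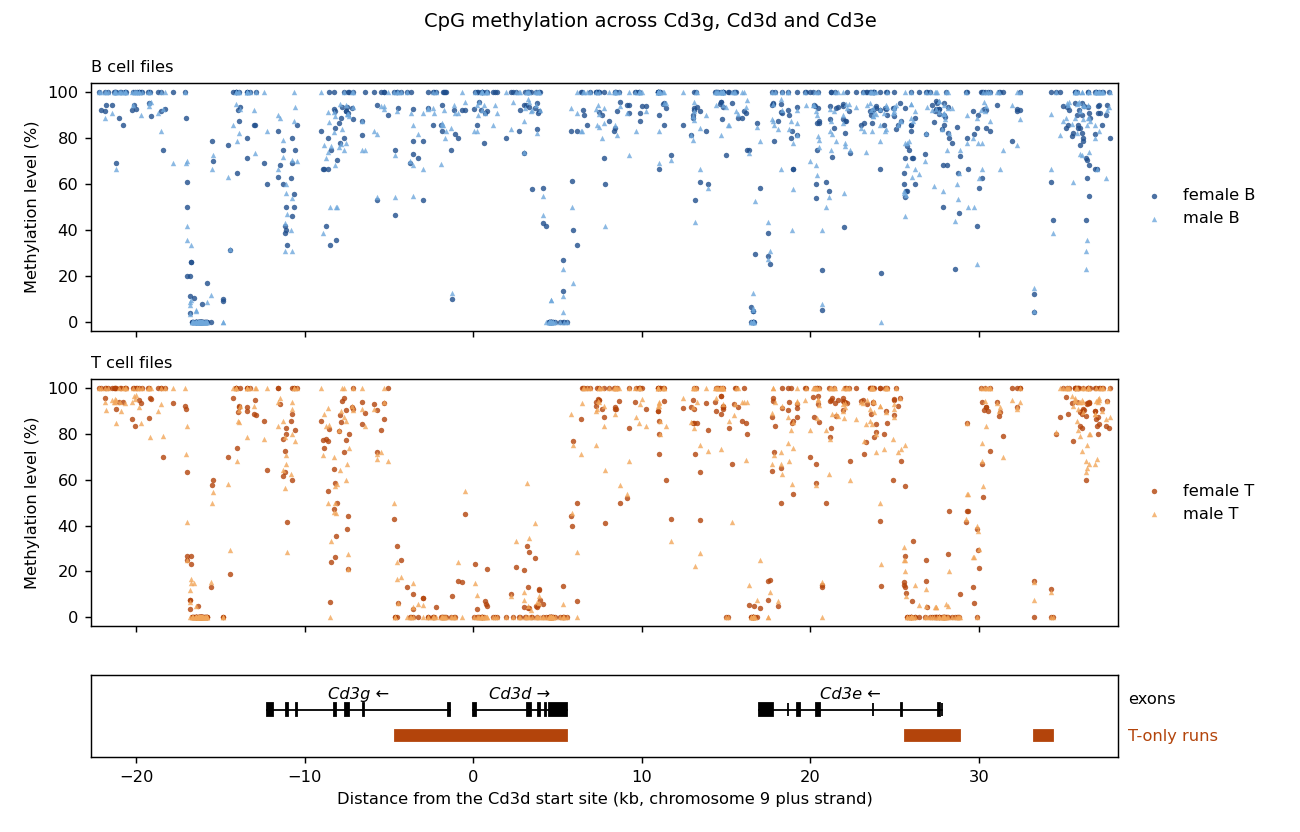
Methylation level of each CpG (percent of reads, y axis) across Cd3g, Cd3d and Cd3e, against distance from the Cd3d start in kb, for the B files above and the T files in the middle. Below are exons (black) and the 3 T-only runs (brown). T files fall to near 0 over the 10206 bp run across Cd3g and Cd3d and at the start of Cd3e, where B files stay high apart from the end of Cd3d.

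The run's left edge fell on the same CpG in female and male T. The 5 CpGs outside it were at 79.7% in female T and 75.6% in male T, and the 5 inside at 6.98% and 10.2%, while B had 98.1% and 95.5% outside and 80% and 83.3% inside. On the right the female T run ended at position 44987553 and the male T run at 44987329, both at the end of Cd3d. Beyond it the T level rose to 43.1% and 54.0% over 5 CpGs.

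The right end of the run was low in the B files as well. A stretch of 1212 bp with 21 CpGs at chr9:44986118-44987329, covering nearly all of exon 5 of Cd3d, had 3.72% in female B and 3.36% in male B, with 0.828% in female T and 0.312% in male T. The T run thus held, at its right end, a part that was low in both cell types. Without that part, the remaining 81 CpGs had 90.7% in female B, 90.3% in male B, 6.23% in female T and 5.58% in male T. Of these 81, 70 were under 20% in both T files and 77 at 50% or more in both B files.

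Within Cd3d the difference was present in exon 2 and on both sides of it, and exon 5 was low in all files. Exon 2 had 99.1% and 97.5% in female and male B and 14.2% and 14.8% in female and male T. Intron 1 (27 CpGs) had 95.5% and 94.0% in female and male B and 4.39% and 2.75% in female and male T, exon 3 had 95.6% and 97.9% in B and 9.38% and 3.85% in T, and exon 5 lay between 0.329% and 3.56%. The 1 kb window with the largest difference of the 3 neighbouring genes lay in intron 1 of Cd3d at chr9:44982001-44983000. It had 96.2% in female B and 94.7% in male B, with 2.82% in female T and 0 of 282 reads in male T. Were the counts at its CpGs independent, this would allow up to 1.06%. Next was chr9:44979001-44980000, in intron 1 of Cd3g, with a mean difference of 92.1 points.

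Cd3g was split. Its intron 1 (37 CpGs), nearest to Cd3d, had 89.0% and 85.4% in female and male B and 20.8% and 19.5% in female and male T. Further on, exons 3 and 4 were higher in B by 38.3 and 36.0 points, while introns 2 to 4 had mean differences of 1.17 to 5.39. Toward the 3′ end the sign turned. Intron 5 had 64.6% and 66.7% in female and male B against 87.5% and 89.4% in T. Intron 6 had 61.0% and 65.2% in B against 78.2% and 78.4% in T. The window at chr9:44971001-44972000, over introns 4 and 5, was called lower in B, at -22.1 points. It was 1 of 2 so called over both intervals, 1.22% of windows there against 0.934% of all autosomal windows. Across the alternatives the number of windows called lower in both intervals lay between 0 and 6.

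Cd3e, transcribed toward Cd3d, had a run of its own. The T-only run at chr9:45007423-45010685 covered 3263 bp and 46 CpGs, from intron 2 through the start site to about 1 kb before it, with the same edges in female and male T. It had 81.2% in female B, 82.5% in male B, 3.76% in female T and 2.20% in male T, and was in place 21 by length. Under a level of 20% it broke into 2 pieces, the longer of 2516 bp and in place 21. Without smoothing it broke into 3, the longest of 1974 bp and in place 27. It was in place 31 under a level of 50%, 19 with a running level over 5 CpGs and 29 with 10 or more reads per CpG. Its strongest windows were chr9:45009001-45010000 at the start, with 86.9% and 90% in female and male B against 0.963% and 1.17% in T, and chr9:45008001-45009000 in intron 2, with a mean difference of 79.8 points. Intron 4, further into the gene, was methylated in both cell types, with 83.6% to 88.4% over 37 CpGs in all files.

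Between Cd3d and Cd3e, whose ends face each other over 11400 bp, the T run did not continue. The 10 kb past the end of Cd3d had 91.8% and 91.0% in female and male B and 85.4% and 85.2% in T. Closer to Cd3e lay a short stretch of 151 bp with 8 CpGs past the end of Cd3e, low in all files. It had 1.19% in female B, 2.86% in male B, 0.595% in female T and 0 of 74 reads in male T. Were the counts at its CpGs independent, the last would allow up to 4.05%. Around this stretch the T files were low over 1037 bp. Its sequence at chr9:44998262-44998412 (GRCm38.p6, plus strand, CpGs in capitals) is shown because it marks a place both cell types share.
Shared low stretch past Cd3e: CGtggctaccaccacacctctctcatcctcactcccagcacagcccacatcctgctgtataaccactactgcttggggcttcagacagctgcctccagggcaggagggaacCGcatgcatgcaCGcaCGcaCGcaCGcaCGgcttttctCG

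**Figure D3:**
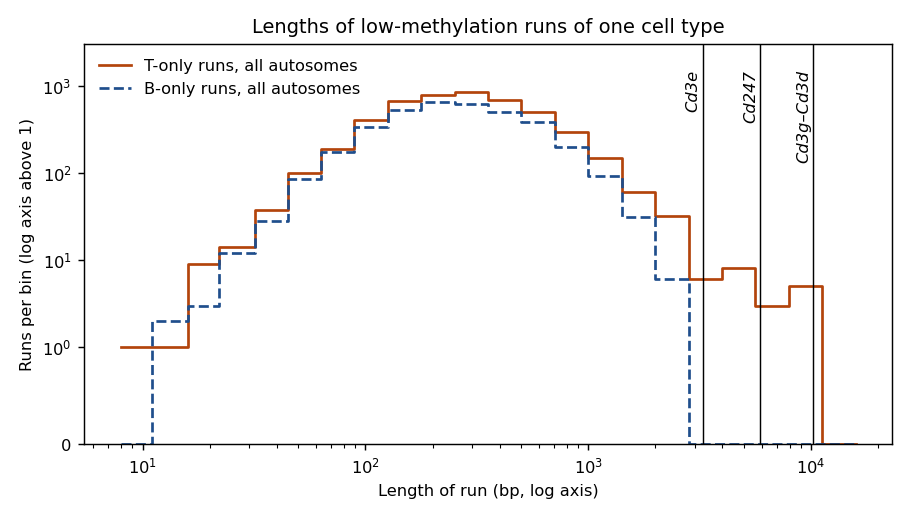
Number of low-methylation runs (y axis, log above 1) by length in bp (x axis, log) for T-only runs (solid) and B-only runs (dashed) on all autosomes. Vertical lines mark the T-only runs at the starts of Cd3e (3263 bp), Cd247 (5897 bp) and Cd3g with Cd3d (10206 bp), all longer than the longest B-only run of 2464 bp.

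Cd247 showed another shape. Its T-only run at the start, chr1:165787928-165793824, covered 5897 bp and 106 CpGs, the most CpGs of any T-only run and place 8 by length. It broke into pieces under a level of 20% and without smoothing, the longest of 2790 and 2837 bp, in place 16 under both. It had 91.2% in female B, 90.5% in male B, 6.00% in female T and 4.80% in male T. In the T files 5 CpGs to the left of it were at 80.3% and 78.7% against 9.76% and 10.0% inside. The nearest of these 5, at chr1:165787915, was already at 0 in female T and 13.3% in male T, and the male T run began there. The right end of the T-only run, in intron 1, was followed by 41.9% and 39.2%.

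The rest of intron 1 was a mix of low, intermediate and high stretches in T cells. Over its 61341 bp and 804 CpGs past the run, the level was 77.8% in female B, 77.0% in male B, 44.4% in female T and 42.2% in male T. Of 61 windows of 1 kb there, both T files were under 20% in 11, between 20% and 80% in 42 and over 80% in 3. A single stretch of 32 successive windows of 1 kb, chr1:165787001-165819000, was called higher in B in every window, place 3 by length among 18686 such stretches. Both T files lay between 20% and 80% in 23 of these windows and under 20% in 8, while both B files were at 70% or more in 28. A level between 0 and 100% in pooled cells cannot tell a share of cells from a share of alleles.

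**Figure D4:**
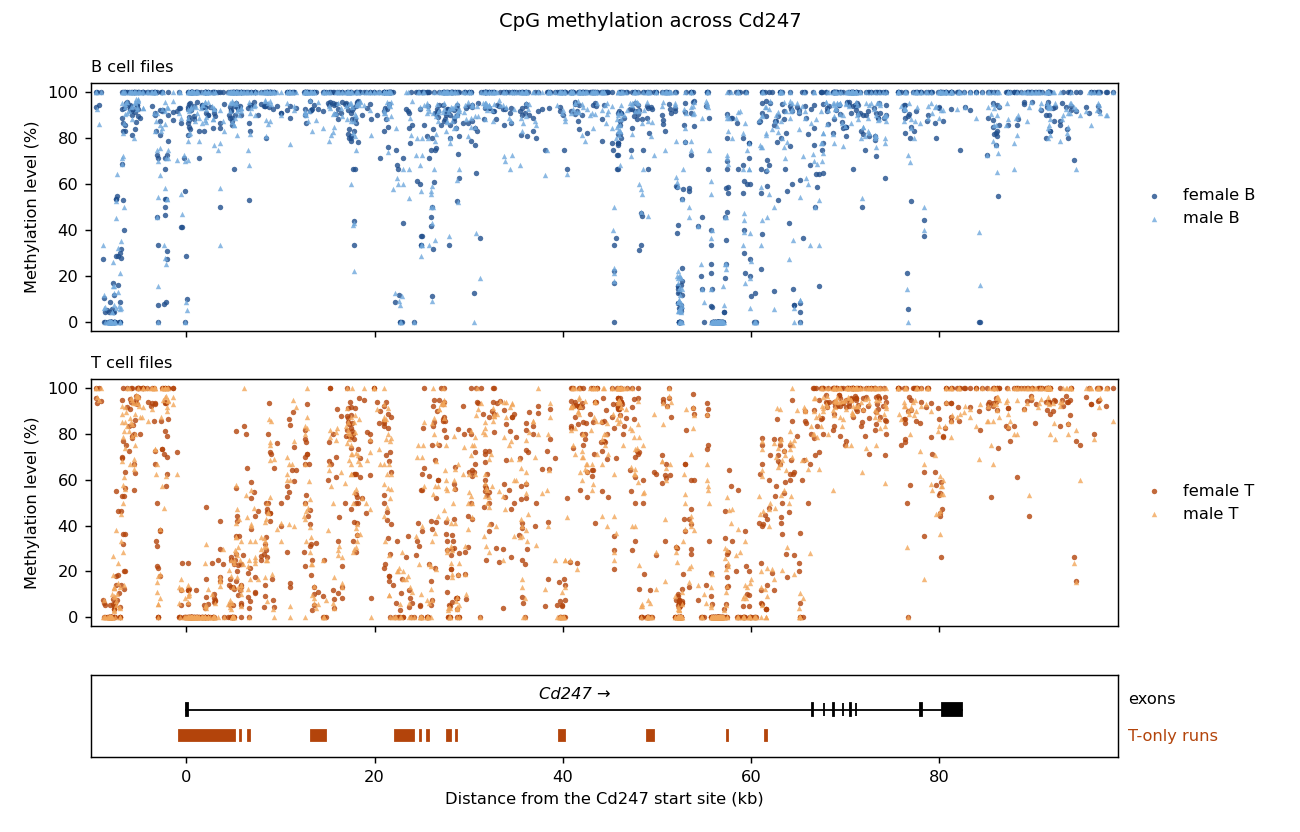
Methylation level of each CpG (percent of reads, y axis) across Cd247, against distance from its start in kb, for B files (above) and T files (middle), with exons and 13 T-only runs below. T files fall to near 0 at the start, scatter at intermediate levels over intron 1 with several returns to 0, and lie near the B files over introns 3 to 7.

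Low runs recurred along the intron. There were 13 T-only runs in the Cd247 interval, covering 12491 bp or 11.5% of it, and 3 in the interval of the other genes, covering 14566 bp or 24.3%, against 0.0779% of the autosomes. No B-only run was found in either interval. All autosomes held 3634 B-only runs, with a median length of 252 bp, so their absence from intervals this short carries no information. The strongest windows were chr1:165789001-165790000 just past the start, with a mean difference of 95.2 points, and chr1:165828001-165829000 far inside intron 1, with 91.2. The shortest T-only run of intron 1 with both B files at 90% or more, chr1:165794372-165794540, had 7 CpGs, with 97.5% in female B, 96.6% in male B, 9.91% in female T and 15.2% in male T. It is printed (GRCm38.p6, plus strand, CpGs in capitals) to show how little sequence such a run covers.
Run in intron 1 of Cd247: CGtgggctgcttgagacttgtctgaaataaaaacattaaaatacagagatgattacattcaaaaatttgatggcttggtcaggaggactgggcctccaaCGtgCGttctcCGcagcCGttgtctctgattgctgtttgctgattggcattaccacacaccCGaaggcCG

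Several low parts inside the intron were shared with B cells. Each file's own low run around them is given here as a description, with no test. At chr1:165844477-165845874 all files were at or under 2.47% over 57 CpGs, and the run there measured 1419 bp in female B, 1398 in male B, 1821 in female T and 1712 in male T. At chr1:165848611-165849113 it measured 503 bp in female B, 540 in male B and 2109 in each T file. At chr1:165811302-165811606 it measured 305 bp in each B file, 2262 in female T and 2048 in male T. At these 3 places both T runs were longer than both B runs. At Cd3d exon 5 the run measured 1212 bp in each B file, 10430 in female T and 10206 in male T. The start of the neighbouring Ube4a had no such order, with 1278 bp in female B and male T and 1420 in male B and female T.

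Past intron 1 the direction varied between parts of the gene. Introns 3 to 7 of Cd247 had mean differences between -1.97 and 1.87 points, with every file at 89.3% or more. Intron 2 was lower in B, at 72.7% and 73.1% in female and male B against 89.1% and 89.6% in T, and intron 8 higher, at 92.3% and 91.2% against 66.6% and 65.3%. Exon 9 was higher in B by 10.3 points. Past intron 1, 2 windows were called higher in B. One lies in intron 8, chr1:165868001-165869000, with 95.9% and 97.0% in female and male B against 59.0% and 58.6% in T. The other lies past the gene's end within Pou2f1, chr1:165883001-165884000, with 88.7% and 85.5% against 41.8% and 41.2%, on 51 to 67 reads over 4 CpGs. Of 10 other annotated genes that overlap the intervals, 4 had promoters called higher in B, against 0.995% of all promoters. They were Gm48720 (85.2 points) and Gm48719 (24.7) within Cd3e, and Gm23402 (38.0) and Gm37469 (32.6) within Cd247. None was called lower, but only 317 of all 49667 promoters were, so none among 10 carries no information. The Gm48720 window shares 1721 bp with that of Cd3e, so its value largely repeats the Cd3e promoter. The other window called lower in B, chr1:165872001-165873000, lies in the annotated Cd247 body and in Pou2f1, past the Cd247 transcript used for exon numbers. It had 40.9% in female B, 46.6% in male B, 91.7% in female T and 85% in male T, on 36 to 58 reads.

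Windows of 1 kb gave the extent of the difference. In the Cd3g, Cd3d and Cd3e interval 16 of 58 windows (27.6%) were called higher in B, with a median difference among those called of 79.3 points, and 1 was called lower. In the Cd247 interval 58 of 106 (54.7%) were called higher, with a median of 42.8 points, and 1 was lower. Of all 1950708 autosomal windows, 1.19% were called higher in B and 0.934% lower. Over all windows tested, called or not, the median difference was 4.74 points in the first interval and 23.8 in that of Cd247. By the share of windows called among 20332 genes, Cd247 was in place 3, Cd3d in place 28, Cd3g in place 37 and Cd3e in place 82. By the number of windows called, Cd247 was in place 5 with 58, Cd3d and Cd3g were both in place 310 with 9, and Cd3e was in place 476 with 7.

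Female and male pools gave closely matching differences in the called windows. Over the called windows the B minus T values of the sexes differed by a median of 3.25 points in the interval of the neighbouring genes and 3.45 in that of Cd247, and by at most 12 and 18.3. Some windows that were not called differed more. B minus T was 13.6 points in female and -5.90 in male files at chr9:44964001-44965000, and 5.12 and 25.6 at chr1:165844001-165845000. Window p-values rest on an average spread between files, since the prior degrees of freedom were infinite, so very small values are not printed.

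**Figure D5:**
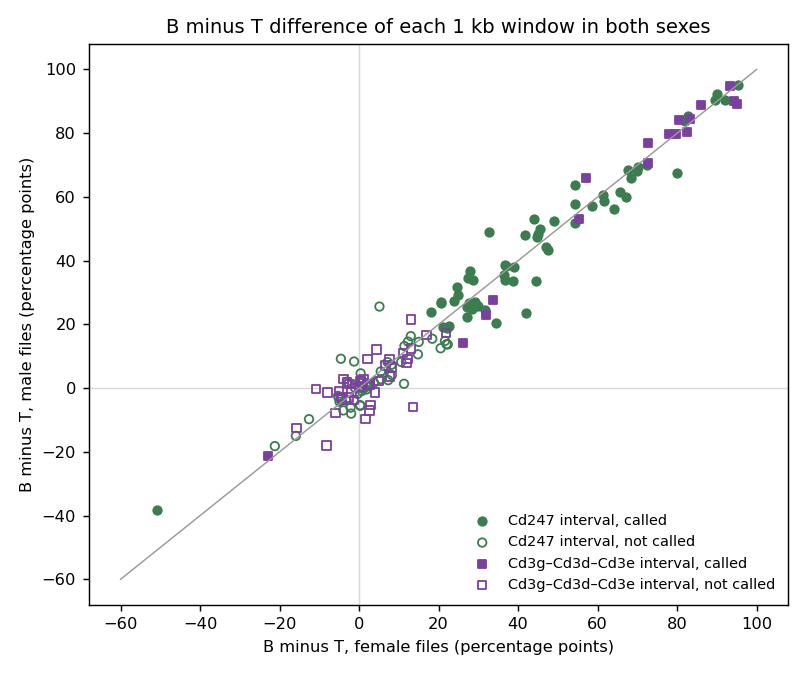
B minus T difference of each 1 kb window (percentage points) in female files (x axis) and male files (y axis), with filled marks for called windows and the diagonal of equal values. The 164 windows follow the diagonal, from -50.8 in female and -38.4 in male files to about 95 points in both.

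Between the sexes, by the same quasi-binomial model, 0 of the 164 windows were called, against 0.00103% of all autosomal windows. At that share, 0 among 164 carries no information. At an unadjusted p under 0.05 there were 10 windows (6.10%), against 4.73% of all windows. limma on log2 ratios called 0 with 6 under that level (3.66%, against 5.28% of all windows), and Fisher's exact test run on both female-male pairs called 0 with 2 (1.22%, against 0.468%). With 10 or more reads per CpG, 0 were called and 13 of 144 windows were under that level (9.03%, against 4.90%), and with windows of 2 kb 0 were called and 9 of 85 were (10.6%, against 4.84%). The largest difference between the sexes in any window was 13.9 points as the mean over both cell types, and 17.9 points within 1 cell type.

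Single CpGs were counted where both B files exceeded both T files by 20 points or more. There were 164 of 632 (25.9%) in the interval on chromosome 9 and 522 of 1345 (38.8%) at Cd247, against 1.33% of 18216084 autosomal CpGs. The reverse was found at 3 (0.475%) and 13 (0.967%) CpGs, against 1.15%.

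Averaged over the gene body and 10 kb to either side, the region of Cd3d had 82.5% and 79.9% in female and male B and 43.7% and 44.7% in female and male T, a mean difference of 37.0 points and the largest of 20700 protein-coding genes (adjusted p = 0.0242). Cd247 followed in place 4 with 28.5 points (0.00779), Cd3g in place 9 with 25.1 (0.0283) and Cd3e in place 35 with 16.0 (0.0423). Cd3d, Cd247 and Cd3g were called higher in B, as were 0.0918% of all genes, with 0.101% called in either direction. Cd3e did not reach 20 points. The calls depend on the flank: over the gene body alone Cd3e had 21.9 points and was called as well (adjusted p = 0.0183), while with 50 kb to either side Cd3d fell to 12.1 points and no member was called. The regions of the neighbours overlap, and those of Cd3d and Cd3g both contain the whole shared T-only run, so these values are not independent. Without the female T file, Cd3d (36.5 points, adjusted p = 0.0567) and Cd3g (24.1, 0.0623) were no longer called, and without the male T file Cd3g was not (26.0, 0.0583).

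The files were alike in depth and overall level. The mean depth per autosomal CpG was 14.6 to 17.7 reads and the autosomal methylation level 79.5% to 80.7%. Of the reference CpGs in the regions of the 4 genes, 91.8% (Cd3e) to 96.1% (Cd247) were measured in all files.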

How the data were processed

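Splenic B and T cells were profiled by whole-genome bisulfite sequencing, with 1 deposited file for each of 4 groups of 2 samples. Per the submitters' processing notes, reads were handled with Trim Galore, FastQC and Bismark 0.13.1 on mm10. The authors deposited, for each CpG, the methylated fraction and a count of covering reads (5 or more), with strands merged. Other filters and duplicate removal are not given in the sources used here. Part of each sample was oxidised, while the file names say bisulfite alone.

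Methylated reads were recovered as fraction times coverage. Promoters (start with 1 kb to either side, GENCODE M21), 1 kb windows and gene regions with at least 3 CpGs were fitted by a quasi-binomial model with cell type and sex, 1 residual degree of freedom and a dispersion prior from squeezeVar (limma 3.58.1, R 4.3.3). F tests (chi-square where the prior degrees of freedom were infinite) were Benjamini-Hochberg adjusted over all autosomal features, and calls needed an adjusted p under 0.05 and 20 points. The procedure was tested on simulated data. The members and lists were chosen with earlier results of these data known. Named were the 2 windows per gene and direction that ranked highest by whichever sex differed less, the 4 signalling genes with the largest and the 2 with the smallest differences, the 3 nearest promoters and the overlapping genes. A gene that this rule names is not reported here. Alternatives changed the read minimum, thresholds, prior, tool, window and flank, and left out each file. Counts of reads limit single CpGs, and p-values measure only the spread between files, which may be technical.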

Additional observations from a re-analysis of the deposited data

How the results depend on the processing

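The 4 promoter calls held under all 13 alternatives tried, where 0.844% to 3.57% of all promoters were called in either direction. The sex comparison gave 0 called windows under all 13. Of all autosomal windows at most 0.0113% were called by sex under any of them, so these counts of 0 carry no information. The share of windows called higher in B over both intervals was 45.1% and moved by over 1.5 times only with a dispersion prior from all features, to 26.2% (to 29.2% from 54.7% at Cd247), where 0.253% of all windows were called. Of the gene regions, 3 were called, where 0.101% of all genes were called in either direction. At a threshold of 10 points 4 were called (0.430% of all genes), and with the gene body alone 4 (0.318%). At a threshold of 30 points 1 was called (0.0145%), and with 50 kb each side 0 (0.0289%). Leaving out 1 file gave 1 to 3, the lowest without female T. The single CpGs with B above T by 50 points rather than 20 made up 20.9% rather than 34.7%. Over all autosomal CpGs the shares were 0.395% and 1.33%. T-only runs numbered 16 in both intervals, of 4778 on the autosomes, 27 of 11014 under a level of 50% and 29 of 5685 without smoothing. Under a level of 20% and without smoothing, each run at a start site broke into pieces, and the longest piece is given. The Cd3g and Cd3d run measured 10206 bp, 5247 under a level of 20%, 10475 under 50% and 3852 without smoothing. The Cd3e run measured 3263 bp, with 2516, 3734 and 1974 under the same settings, 3579 with a running level over 5 CpGs and 3193 with 10 or more reads. The Cd247 run measured 5897 bp, with 2790, 6044 and 2837 under the first 3 settings. The cause of these moves was not tested. No block by replicate number was possible because the groups share no replicate numbers. The sex term of the model sets the B and T files of each sex side by side.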
